A study of Urochloa humidicola with 8 samples.

Results

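The transcripts described here are the 150 assembled leaf transcripts of Urochloa humidicola with the widest gap between libraries labelled high lignin and libraries labelled low lignin. They were selected on their own levels in these groups, from 17896 transcripts with at least 1 CPM (the read count of a transcript relative to the total of its library) in all 8 libraries, of 48695 in all. The gap is the distance, in log2(CPM + 1), between the lowest library of one group and the highest library of the other. Of the 150, 109 were higher and 41 lower in high lignin. Because these values chose the transcripts, the differences given for them are a description and support nothing about lignin.

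The study sequenced RNA from young leaves of 4 samples chosen for high lignin production and 4 chosen for low lignin production, from an earlier measurement of lignin percentage. Lignin itself was not analysed here, and the labels name no allele, agent, age or growth condition by which the groups differ. All 8 share the leaf stage, the second extended leaf, kept in RNAlater at the Embrapa beef cattle centre. The labels do not say whether samples of a group are separate plants or genotypes, so the spread between them may be partly technical. Replicates are numbered by order of listing and pair nothing.

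Lignin is a phenolic polymer that stiffens secondary cell walls, above all in xylem and fibres. Grasses make its monomers from phenylalanine and tyrosine through the phenylpropanoid pathway, and laccases and peroxidases join them in the wall. In forage grasses such as U. humidicola, a tropical pasture species, lignin limits how far ruminants digest the leaf. Each transcript is known by a number after the prefix asmbl_ and by no gene name, so 0 of the 150 could be tied to a gene, to that pathway or to a cell type, and no function or sequence is given for any of them. A list of lignin pathway, photosynthesis and xylem genes therefore gave no value, and the tissue could not be checked by markers. In bulk leaf RNA, fewer cells of a type and less RNA per cell cannot be told apart.

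The high lignin libraries held between 7717993 and 9556635 rounded reads and the low lignin libraries between 9049354 and 10805639. Low lignin replicate 3 stood apart: its mean Spearman correlation to the other libraries across the 17896 transcripts was 0.767, while the other 7 had means from 0.844 to 0.876. Membership of the list, the placement of left-out libraries and the DESeq2 calls are given with and without it. So are the low lignin means of asmbl_3823, asmbl_3808, asmbl_6668 and asmbl_4434. Other means that it moves are not all given. One is that of asmbl_37221, named after seeing its values. That transcript had 32.3 CPM in this library and 3.05 to 6.85 CPM in the other low lignin libraries. Every pair of libraries differed by more than counting noise, with a chi-square of at least 35.8 per degree of freedom. The 150 transcripts together took between 1.41% and 1.68% of the reads in high lignin libraries and between 0.685% and 0.859% in low lignin libraries.

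Groups that did not overlap were found in 761 of the 17896 transcripts, or 4.25%. Of these, 493 (2.75% of the 17896) were higher and 268 (1.5%) were lower in high lignin, so 64.8% were higher, against 72.7% among the 150. That balance depended on scaling. It was 54.8% higher with TMM scaling and 52.8% with DESeq2 size factors, over 850 and 844 transcripts whose groups did not overlap. Among the 150 widest gaps, 99 were higher in high lignin under either scaling.

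The gaps were narrow for most of the list. Only 6 of the 150 had a gap of 1 or more on the log2 scale, and 72 had 0.5 or more. The median gap was 0.49 for the 109 higher transcripts and 0.44 for the 41 lower ones. In linear terms, the nearest libraries of the opposite groups were at least 2-fold apart in CPM for 8 of 150 and at least 1.5-fold apart for 63. The group means were at least 2-fold apart for 120 and at least 4-fold apart for 19. The last transcript on the list, asmbl_23999, had a gap of 0.341325, and the first one outside it, asmbl_45945, had 0.341324, so the end of the list follows from its length and marks no step in the values.

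The widest gap belonged to asmbl_47246, 383 bases long. It had 54.2, 36.8, 58.3 and 52.6 CPM in high lignin replicates 1 to 4, against 7.85, 14.2, 7.65 and 10.2 CPM in low lignin replicates 1 to 4. Every high lignin library was above every low lignin library, and the high lignin library nearest to the other group was replicate 2. The means were 50.5 ± 9.44 CPM in high lignin and 9.98 ± 3.06 CPM in low lignin (SD, n = 4 each). Its log2 fold change, high minus low, was 2.31 ± 0.33 (standard error). The quasi-likelihood test of edgeR gave it an adjusted p of 0.442 over the 27015 transcripts tested.

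Transcript asmbl_12792, 250 bases long, had 46.8, 47.0, 57.0 and 50.4 CPM in high lignin, against 14.8, 9.39, 15.3 and 19.6 CPM in low lignin. The high lignin libraries lay close together, and low lignin replicate 4 was the nearest to them. Its estimated reads were not whole numbers in any library.

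Several of the widest gaps sat at low levels, with few reads behind them. For asmbl_12982, 2192 bases long, the libraries had 6.91, 11.5, 14.3 and 9.35 CPM in high lignin, against 2.43, 1.92, 2.03 and 1.85 CPM in low lignin. The low lignin libraries differed little, but the smallest read count of the 8 was only 19. Transcript asmbl_17719, 707 bases long, had 6.91, 12.8, 9.07 and 7.07 CPM in high lignin, against 2.76, 2.42, 1.26 and 2.22 CPM in low lignin, with 13 reads in its lowest library. At 1160 bases, asmbl_15270 had 22.2, 21.3, 13.99 and 15.3 CPM in high lignin, against 2.87, 5.15, 5.14 and 5.65 CPM in low lignin. Its high lignin libraries formed an upper and a lower pair, and low lignin replicate 1 was the lowest of all.

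Depth was no limit for asmbl_15163, 1853 bases long, the most strongly expressed of the 10 widest gaps by TPM, a level per transcript length. Its CPM was 1127, 994, 1351 and 1160 in high lignin, against 416, 446, 437 and 501 in low lignin. The spread within either group was small beside the distance between them. Its mean TPM was 599 in high lignin and 231 in low lignin. Reads were whole numbers in all 8 libraries, with at least 3763 in each, and edgeR gave a log2 fold change of 1.33 ± 0.26 (standard error), adjusted p = 0.655.

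Among the other transcripts of this direction with wide gaps, asmbl_40916 had from 31.3 to 47.6 CPM in high lignin and from 4.31 to 16.5 CPM in low lignin. For asmbl_44702 the ranges were 122 to 219 CPM in high lignin and 31.7 to 65.7 CPM in low lignin. In asmbl_38744 they were 6.07 to 10.7 CPM in high lignin and 2.31 to 2.87 CPM in low lignin. The first of these spread widely in low lignin, the second in high lignin. Of the 5 with the highest mean CPM in this direction, asmbl_15163 held rank 7 by gap and the other 4 held ranks from 33 to 105. One of these, asmbl_3823, had 1816, 1481, 1311 and 1705 CPM in high lignin, against 860, 899, 306 and 898 CPM in low lignin. Here 3 low lignin libraries were close together, and replicate 3 was far below them. The low lignin mean was 741 CPM with it and 886 CPM without it. For asmbl_47400 the values were 995, 889, 1302 and 1062 CPM in high lignin, against 309, 557, 268 and 516 CPM in low lignin. Low lignin libraries of that transcript fell into an upper and a lower pair. The ranges of asmbl_455 were 558 to 756 CPM in high lignin and 330 to 414 CPM in low lignin, and those of asmbl_16057 were 455 to 544 CPM in high lignin and 158 to 329 CPM in low lignin.

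**Figure D1:**
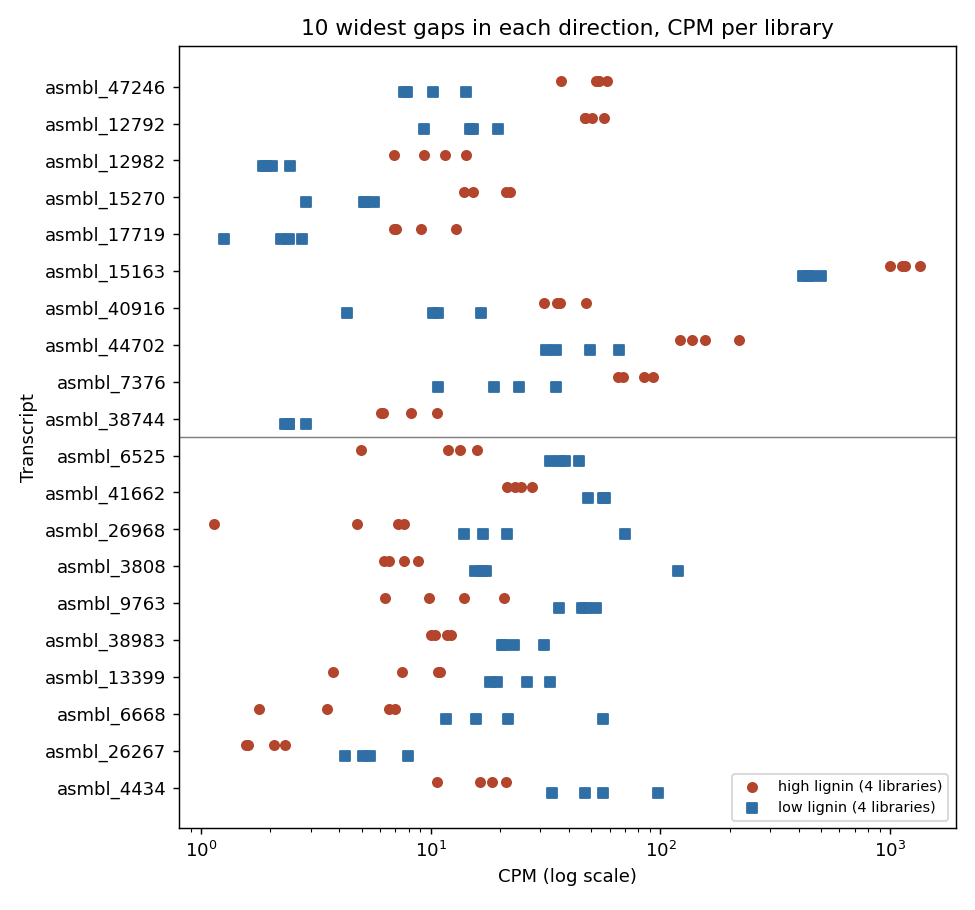
CPM on a log scale in each of the 8 libraries for the 10 transcripts with the widest gap in each direction, higher in high lignin above the line and lower below it. Points are single libraries (circles high lignin, squares low lignin), and the groups do not overlap because the transcripts were chosen that way; asmbl_3808 and asmbl_26968 each have 1 low lignin library far above the other 3.

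In the opposite direction the widest gap was that of asmbl_6525, 863 bases long. It had 13.4, 4.97, 11.9 and 15.97 CPM in high lignin, against 36.7, 33.1, 38.4 and 44.1 CPM in low lignin. The low lignin libraries were close together and high lignin replicate 2 was the lowest of all. Means were 11.6 ± 4.70 CPM in high lignin and 38.1 ± 4.56 CPM in low lignin (SD, n = 4 each), with a log2 fold change by edgeR of -1.73 ± 0.40 (standard error) and adjusted p = 0.785.

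A smaller difference with little spread was seen for asmbl_41662, 1116 bases long, with 24.8, 21.5, 23.3 and 27.6 CPM in high lignin, against 57.5, 48.6, 56.3 and 56.6 CPM in low lignin. All of its reads were whole numbers, and edgeR gave a log2 fold change of -1.19 ± 0.22 (standard error), adjusted p = 0.564. Both groups were tight, and low lignin replicate 2 was nearest to high lignin. Transcript asmbl_9763, 764 bases long, had 9.84, 6.30, 13.99 and 20.9 CPM in high lignin, against 52.6, 47.5, 45.6 and 36.2 CPM in low lignin. Its high lignin libraries differed more among themselves, with replicate 4 highest, and replicate 4 was also the nearest library of the low lignin group.

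For some of the lower transcripts, 1 library made much of the difference in means. In asmbl_3808, 1794 bases long, the values were 6.28, 7.62, 6.61 and 8.78 CPM in high lignin, against 17.5, 16.8, 119 and 15.6 CPM in low lignin. Low lignin replicate 3 stood far above the other 3, which were near one another. The low lignin mean was 42.3 CPM with it and 16.6 CPM without it. Transcript asmbl_26968, 1075 bases long, had 7.22, 4.75, 7.64 and 1.14 CPM in high lignin, against 69.7, 21.5, 16.9 and 13.9 CPM in low lignin, where replicate 1 was the high one. Without that library the low lignin mean was 17.4 CPM, against 30.5 CPM with it. In asmbl_6668, 598 bases long, the high lignin libraries had 1.78, 6.96, 6.61 and 3.54 CPM and the low lignin libraries 11.6, 21.7, 56.3 and 15.7 CPM, again with low lignin replicate 3 highest. The low lignin mean was 26.3 CPM with it and 16.3 CPM without it.

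In another 4 of the 10 widest gaps in this direction, no single library changed a group mean by as large a factor. High lignin libraries of asmbl_38983 ran from 9.98 to 12.3 CPM and low lignin libraries from 20.4 to 31.1 CPM. For asmbl_13399 the ranges were 3.76 to 11.0 CPM in high lignin and 18.2 to 32.9 CPM in low lignin. In asmbl_26267 they were 1.57 to 2.32 CPM in high lignin and 4.24 to 7.95 CPM in low lignin. Its smallest read count was only 14. The range of asmbl_4434 was 10.7 to 21.2 CPM in high lignin and 33.9 to 97.4 CPM in low lignin. Low lignin replicate 3 was the highest library of asmbl_38983, asmbl_26267 and asmbl_4434. The low lignin mean of asmbl_4434 was 58.7 CPM with that library and 45.8 CPM without it. By mean CPM, the highest of the 41 was asmbl_12032, with 48.5 to 80.1 CPM in high lignin and 103 to 127 CPM in low lignin. Its gap was 0.36, near the end of the list, and its edgeR log2 fold change was -0.76 ± 0.21 (standard error). The long transcript asmbl_29066, 3440 bases, ran from 26.9 to 32.4 CPM in high lignin and from 44.2 to 52.6 CPM in low lignin.

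Not all entries were separate observations. Transcripts asmbl_18417 and asmbl_270, both 358 bases long, held identical read estimates throughout (compared to 2 decimals), with 20.6, 17.4, 29.7 and 24.9 CPM in high lignin against 40.2, 53.1, 113 and 74.1 CPM in low lignin. A second such pair was asmbl_16871 and asmbl_954, both 786 bases long, which had 237, 105, 216 and 136 CPM in high lignin against 7.18, 59.8, 17.4 and 79.1 CPM in low lignin. The list therefore held 148 sets of values. This second pair was chosen for mention after its values were seen.

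Another 8 members formed 4 pairs with consecutive running numbers, each pair higher in high lignin, as were 72.7% of the 150. Whether 4 pairs are many for a list of this length was not tested. Transcripts asmbl_7375 and asmbl_7376, both 796 bases long, had no whole-number reads in any library, and the second was higher in each. The first had 23.8, 38.8, 32.9 and 37.3 CPM in high lignin against 5.86, 9.39, 16.1 and 12.1 CPM in low lignin. The second had 65.1, 84.8, 68.7 and 92.5 CPM in high lignin against 10.7, 18.8, 35.0 and 24.2 CPM in low lignin. Their deviations from the group means across the 8 libraries had a Pearson correlation of 0.96. For asmbl_12792 and asmbl_12793 (250 and 206 bases) that correlation was 0.11. It was 0.46 for asmbl_7212 and asmbl_7213 and 0.49 for asmbl_19964 and asmbl_19965. The median over all 7321 consecutive pairs with 1 CPM in every library was 0.26. These correlations rest on 8 libraries and describe the pairs only. Levels differed within a pair: asmbl_7212 ran from 5.19 to 18.9 CPM in high lignin and from 1.88 to 3.59 CPM in low lignin, while asmbl_7213 ran from 301 to 695 CPM in high lignin and from 107 to 180 CPM in low lignin. Per length, asmbl_19965 had the higher mean TPM of its pair, 898 in high lignin and 342 in low lignin, against 364 in high lignin and 135 in low lignin for asmbl_19964.

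Next to the members by number were 110 other transcripts with 1 CPM in every library. Their group means differed in the direction of the member in 78 of 110 (70.9%). Among all 7321 consecutive pairs with 1 CPM in every library, the directions were the same in 57.2%. Members were selected for a wide difference, while most transcripts of those pairs were not. The median absolute difference of group means, in log2(CPM + 1), was 1.25 for the 150 and 0.29 for all 17896. The shares of 70.9% and 57.2% therefore do not compare like with like. In 9 of the 110 (8.18%) the groups did not overlap and the direction was that of the member, and in 0 it was the opposite. Over all 17896 transcripts, groups did not overlap in 4.25%, in either direction. That share includes the 150 members, which the 110 leave out, so it is not a like base for the 8.18%. The labels do not say what order the running numbers follow.

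**Figure D2:**
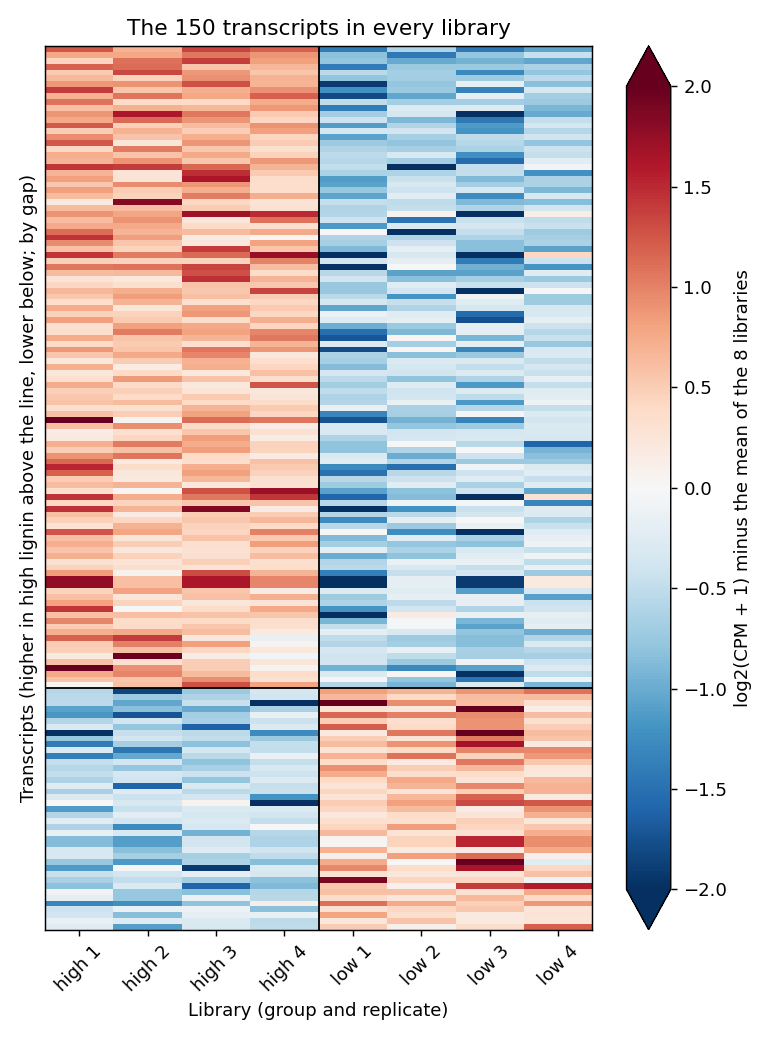
The 150 transcripts (rows, ordered by gap within each direction) in the 8 libraries (columns, high lignin left), as log2(CPM + 1) minus the mean of the row, with colours ending at 2 either way. The change of colour at the middle line follows from how the transcripts were chosen; the uneven shading within low lignin replicate 3 and the pale cells in high lignin replicate 4 and low lignin replicate 4 show libraries far from or close to the other group.

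The length of the transcripts, which the rule did not use, was like that of the rest. The median was 1273 bases for the 150 and 1280 bases for all 17896. Under 500 bases were 23 of the 150 (15.3%) and 11.1% of the 17896. The levels were somewhat higher: the median of mean TPM was 24.3 among the 150 and 15.0 among the 17896, and a mean over 100 CPM was reached by 30 of the 150 (20%) and by 10.04% of the 17896. Adding 1 before the logarithm shortens the gaps of low transcripts. Whether it has a part in this difference was not tested. Reads were whole numbers (to within 0.005) in all 8 libraries for 46 of the 150 (30.7%) and for 34.7% of the 17896. They were fractional in all 8 for 75 of the 150 (50%) and for 42.9% of the 17896.

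The nearest libraries lay further apart than counting error in part of the list. In 100 of the 150 transcripts, the exact 95% Poisson intervals of the 2 libraries that bound the gap did not overlap, and in 50 they did. The rule chose the transcripts for the distance between those libraries, so these counts are a description only. For asmbl_47246, the lower limit of high lignin replicate 2 was 32.9 CPM and the upper limit of low lignin replicate 2 was 16.8 CPM. For the last transcript, asmbl_23999, the corresponding limits were 24.3 CPM (high lignin replicate 1) and 24.5 CPM (low lignin replicate 3). In 41 of the 150, at least 1 library held under 30 reads, down to 8. Reads carried no molecular identifiers, so the intervals cover counting error only.

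The library that came nearest to the other group was not spread evenly. High lignin replicate 4 was that library in 53 of the 150, replicate 2 in 46, replicate 3 in 27 and replicate 1 in 24. Among low lignin libraries, replicate 4 was nearest in 48, replicate 2 in 39, replicate 3 in 34 and replicate 1 in 29. Over all 761 transcripts whose groups did not overlap, high lignin replicate 4 (36.9%) and low lignin replicate 4 (34.3%) were also the most frequent. The median within-group SD of log2(CPM + 1) was 0.27 in high lignin and 0.35 in low lignin for the 150, and 0.39 in high lignin and 0.56 in low lignin for the 17896. The smaller SD of the 150 follows from the rule.

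In the test over the whole table, none of the 150 passed. With edgeR's quasi-likelihood test, 0 of the 150 had an adjusted p under 0.05, where 0% of 27015 transcripts were called, and their adjusted p ran from 0.442 to 0.838. At an unadjusted p under 0.05 were 146 of the 150, where the share of all 27015 was 5.85%. DESeq2 on the same transcripts called 75 of the 150 (57 higher, 18 lower) at an adjusted p under 0.05, with 0.62% of 26598 called, and 1 of the 150 received no adjusted p. Without low lignin replicate 3, added after seeing the data, it called 90 of the 150, with 1.91% of 27987 called. As the rule used this same contrast, nothing is read from these counts. Fold changes from edgeR had a median of 1.32 in log2 for the 109 higher transcripts and -1.38 for the 41 lower ones.

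The same rule was applied to the other 34 ways of putting the 8 libraries into 4 and 4. The labels gave a median gap of 0.479 over the 150 widest. The others gave from 0.109 to 0.588 with a median of 0.299, and 2 of the 34 gave a wider one than the labels. The count of transcripts whose groups did not overlap was 761 by the labels and from 182 to 1117 otherwise, with 4 of the 34 above the labels. The labelled division was thus near the wide end of the 35 and did not have the widest gaps. These divisions need all 8 libraries and were not computed without low lignin replicate 3.

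A measurement that did not choose the list came from leaving out 1 library. The rule was applied to the other 7 libraries, and the left-out library was then set against the midpoint of the 2 group means for the 150 widest gaps of those 7. It lay on the side of its own group in 665 of 1200 placements (55.4%), where transcripts with 1 CPM in those 7 libraries gave 51.3% on average. For transcripts higher in high lignin it did so in 494 of 846 (58.4%), and for those lower in 171 of 354 (48.3%). No share over all transcripts was at hand for each direction, so nothing is read from the difference between the directions. The 8 lists share most of their libraries, so these shares are counts and carry no test.

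Libraries differed in this measure. High lignin replicate 1 was on its own side in 120 of 150 (80.0%), replicate 3 in 104 (69.3%) and replicate 2 in 95 (63.3%), where all transcripts gave 60.2%, 55.2% and 56.1%. High lignin replicate 4 was on its own side in 65 (43.3%, all transcripts 49.4%). Low lignin replicate 1 was on its own side in 98 (65.3%, all transcripts 52.8%) and replicate 2 in 75 (50%, all transcripts 49.2%). Low lignin replicates 3 and 4 were on their own side in only 51 (34.0%, all transcripts 44.3%) and 57 (38.0%, all transcripts 43.0%). In 4 of the 8 libraries, transcripts that separated the other 7 thus placed the left-out library with its own group more often than not. All transcripts did so in the same 4 libraries, so this count does not set the separating transcripts apart. With TMM scaling, added after seeing the data, the total was 658 of 1200 (54.8%, all transcripts 52.2%). With low lignin replicate 3 kept out of every list, also added afterwards, it was 618 of 1050 (58.9%, all transcripts 54.1%).

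**Figure D3:**
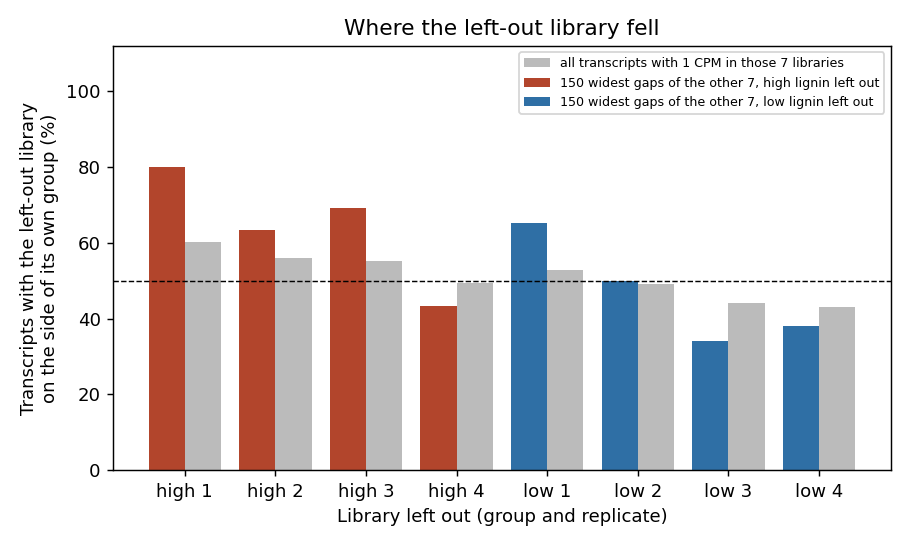
Share of transcripts (%) for which the library named on the horizontal axis lay on the side of its own group, for the 150 widest gaps of the other 7 libraries (coloured) and for all transcripts with 1 CPM in those 7 (grey); the dashed line is at 50%. High lignin replicate 1 reached 80.0% and low lignin replicate 3 34.0%, and the coloured bar is below the grey one for high lignin replicate 4 and low lignin replicates 3 and 4.

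The list itself changed with each library. Of the 150 members, 110 were among the 150 widest gaps without high lignin replicate 1, 90 without replicate 2, 95 without replicate 3 and 64 without replicate 4. Without low lignin replicates 1 to 4 the numbers were 90, 78, 48 and 60. Without low lignin replicate 3, the library that stood apart, 2106 of 18990 transcripts (11.1%) had groups that did not overlap, which is easier to meet with 4 against 3. Leaving out any other library gave between 1059 (5.84%) and 1758 (9.61%). Without low lignin replicate 3, 92 of the 150 widest gaps were higher in high lignin. Leaving out a library can only keep or widen the gap of a member, while the gap needed to enter the list went up to between 0.43 and 0.66. The members in all 8 lists were therefore those with the widest gaps, 36 in all, 28 higher and 8 lower in high lignin, and this count restates the ranking.

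**Figure D4:**
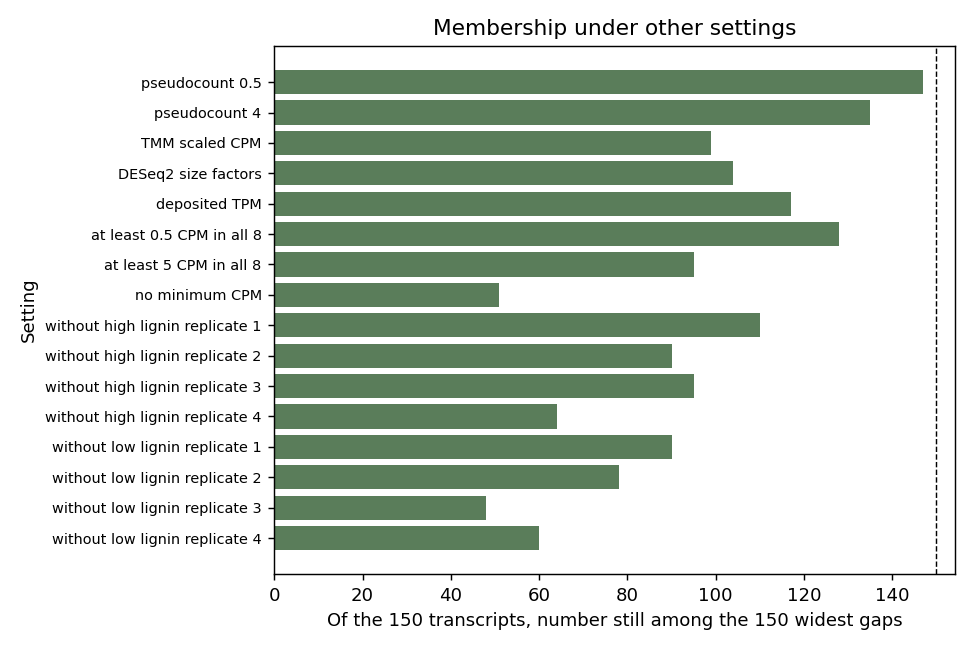
Number of the 150 transcripts that were still among the 150 widest gaps under each other setting or with 1 library left out; the dashed line marks 150. The number ran from 48 without low lignin replicate 3 to 147 with a pseudocount of 0.5.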

How the data were processed

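Young-leaf RNA of 8 libraries, 4 high lignin and 4 low lignin by their treatment label, was made into TruSeq stranded mRNA libraries and sequenced on an Illumina HiSeq, per the labels' protocols. Salmon 0.7.2, StringTie 2.0.4 and FastQC 0.11.8 appear in the submitters' processing notes, with no role. The assembly, genome build, filters and strand setting were not stated in the sources. The deposited files hold, per the file headers, estimated counts of reads, not normalized and not all whole, and TPM values scaled by effective length.

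Estimated counts were rounded to whole numbers and divided by the library total to give CPM; 3 reads came to 0.278 to 0.389 CPM. Transcripts with 1 CPM in all 8 libraries were ranked by their gap in log2(CPM + 1), and the 150 widest were kept. The test over all transcripts used edgeR 4.0.16 in R 4.3.3 (filterByExpr, TMM, quasi-likelihood, group as the only term, Benjamini-Hochberg adjustment, two-sided, threshold 0.05), with DESeq2 1.42.0 and limma 3.58.1 as alternatives; standard errors were the fold change divided by root F. The rule and the edgeR fit were also run on simulated data with known changes. The outcome is not given here, so nothing is read from it on the power of the fit. Named transcripts were the 10 widest gaps and 5 highest mean CPM in each direction, the ends of the list and consecutive numbers. The members, lists and tests were chosen with earlier results of these data known.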

Additional observations from a re-analysis of the deposited data

Results flagged for a closer look

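In 4 of 70 groups of 4 libraries checked among the named transcripts, 1 library lay far enough from the other 3 to exceed Dixon's 95% limit, which chance exceeds in about 5% of groups. All 4 were low lignin libraries, but only the 35 named members were checked. Transcript asmbl_3823 had 306 CPM in low lignin replicate 3, and asmbl_3808 had 119 CPM in the same library. Transcript asmbl_26968 had 69.7 CPM in low lignin replicate 1, and asmbl_41662 had 48.6 CPM in low lignin replicate 2. Members left unchecked also had far libraries, in high lignin too, as seen in examples picked after seeing their values. In high lignin replicate 2, asmbl_47823 had 47.0 CPM, against 10.8 to 12.9 CPM in the other high lignin libraries. For asmbl_7567 these values were 13.8 CPM and 3.77 to 4.53 CPM. The low lignin values of asmbl_37221 were not checked either.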

How the results depend on the processing

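Of the 150 members, 147 were kept at a pseudocount of 0.5, 135 at 4, 99 with TMM scaling, 104 with DESeq2 size factors, 117 with deposited TPM, 128 at a minimum of 0.5 CPM, 95 at 5 CPM and 51 with no minimum, where transcripts near 0 in 1 group enter. With 1 library left out the number ranged from 48 to 110, and from 92 to 116 of the 150 widest gaps were higher in high lignin. Under each of these settings, all 150 members still had groups that did not overlap. This was by construction where only the libraries, the minimum or the pseudocount differ. That the 35 named members kept their direction in all 560 values follows from it and adds nothing. The count past an adjusted p of 0.05 stayed at 0 with edgeR (upper quartile scaling, no scaling factor, no filter, and 0 to 0 with 1 library left out) and limma with voom. It was 75 with DESeq2 on the same transcripts, 75 with it without the filter and, added after seeing the data, 90 without low lignin replicate 3; the cause was not tested. At an unadjusted p under 0.05 there were 129 to 149 members over the edgeR, DESeq2 and limma alternatives, in which 3.98% to 11.4% of all transcripts tested had such a p; as the rule used this contrast, nothing is read from it. Members within 5 running numbers of another were 25, against 8 with consecutive numbers. Requiring the left-out library to lie beyond every library of the other group gave 837 of 1200 (69.75%, all transcripts 29.4%). This bar is laxer than the midpoint for transcripts listed for a wide gap. Over all transcripts it was met less often than the midpoint (51.3%), so these shares do not compare like with like. No paired analysis was possible because sample titles are numbered through and pair none across the groups. Depth limits the members with few reads.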
